A study of Homo sapiens with 3 samples.

Results

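Ribosomal protein pseudogenes are copies of the genes for the proteins of the ribosome. The count table of 51136 genes listed 1793 genes whose symbols have the form of a ribosomal protein name followed by P and a number, such as RPL21P16. The 671 of them with 10 or more counts in at least 1 of the 3 libraries are described here, each beside its parent, the gene named before the final P. No read was counted on 571 of the others, and 551 had a highest count between 1 and 9. Because the 671 were chosen by these counts, their levels and differences are given as a description, with no test.

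The cells were PANC-1, an established line of human pancreatic cancer, and RNA-seq was done on 3 libraries of them. The control cells received no agent. The Rg3 cells received Ginsenoside Rg3, a saponin of ginseng, at 200 μM for 24 h, and the TAM cells received tamoxifen, an antiestrogen, at 50 μM for 24 h. The libraries were made to see which genes respond to the compounds. With 1 library per condition, no difference below has a replicate check, no solvent for the control is stated, and fewer cells and less RNA per cell cannot be told apart.

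Most of these copies are processed pseudogenes, made when a spliced messenger RNA was copied back into DNA and inserted at another place in the genome. They carry no introns, seldom have a promoter of their own, and their sequences drift away from the parent with age. Short reads from a parent's messenger RNA can therefore match a young copy as well as they match the parent, so that a count on a copy can hold reads of either. How reads that match several places were counted is not given in the sources used here.

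The sequences show how close the copies are. RPL21, whose product sits in the large subunit of the ribosome, is spliced from 6 exons at chr13:27251309-27256691 (plus strand, GRCh38). Its coding bases 1 to 90 are set beside the same stretch of 3 single-exon copies, chosen because they hold the most counts of the family and its largest change with Rg3. RPL21P16 lies at chr10:120355094-120355183, RPL21P28 at chr1:212051917-212052006 and RPL21P51 at chr4:165012756-165012845 (window positions, all on the minus strand). Capitals mark bases that differ from the parent.
RPL21: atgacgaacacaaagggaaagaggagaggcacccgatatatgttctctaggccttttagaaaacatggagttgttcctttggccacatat
RPL21P16: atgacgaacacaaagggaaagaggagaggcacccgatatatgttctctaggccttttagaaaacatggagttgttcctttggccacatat
RPL21P28: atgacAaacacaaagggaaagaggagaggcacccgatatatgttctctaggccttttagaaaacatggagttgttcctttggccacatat
RPL21P51: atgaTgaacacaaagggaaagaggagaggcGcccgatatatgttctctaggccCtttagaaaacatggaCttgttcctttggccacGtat
RPL21P16 had no different base in the window, nor in the whole of its 483 bases. RPL21P28 differed at 1 base of the 90 and RPL21P51 at 5.

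The other pairs shown carry the results below. RPS2, for a protein of the small subunit, is at chr16:1962052-1964860 (minus strand), and its copy with the most reads of all members, RPS2P5, has this stretch at chr12:118246084-118246173 (plus strand). RPS14, also of the small subunit, is at chr5:150442635-150449756 (minus strand), and the stretch of RPS14P1 is at chr1:206696180-206696269 (minus strand). RPL18, of the large subunit, is at chr19:48615328-48619536 (minus strand), and the stretch of RPL18P3 is at chr5:121616278-121616367 (plus strand). The stretches begin at coding base 1 for RPS2 and RPS14 and at base 33 for RPL18, the first place where 90 bases aligned without a gap.
RPS2: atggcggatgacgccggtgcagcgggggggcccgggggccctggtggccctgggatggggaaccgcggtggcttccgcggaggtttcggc
RPS2P5: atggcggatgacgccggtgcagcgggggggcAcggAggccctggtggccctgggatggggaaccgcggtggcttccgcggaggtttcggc
RPS14: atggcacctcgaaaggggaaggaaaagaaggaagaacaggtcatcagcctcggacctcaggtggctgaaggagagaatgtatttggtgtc
RPS14P1: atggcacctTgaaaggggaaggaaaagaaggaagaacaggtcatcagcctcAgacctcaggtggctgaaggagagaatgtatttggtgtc
RPL18: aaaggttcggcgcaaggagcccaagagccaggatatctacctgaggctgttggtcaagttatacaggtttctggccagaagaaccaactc
RPL18P3: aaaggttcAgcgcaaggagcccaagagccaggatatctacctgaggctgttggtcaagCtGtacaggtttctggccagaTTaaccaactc
RPS2P5 and RPS14P1 each differed from the parent at 2 of the 90 bases, and RPL18P3 at 5. Codon 4 of RPS14P1 is a stop codon in the parent's frame. The longest run of bases that RPL18P3 shared with its parent was 49, and it lies within the stretch shown.

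The 671 members together took 373305 of the 11300766 counts of the control library (3.30%), 430870 of 12861693 in the Rg3 library (3.35%) and 418254 of 11321442 in the TAM library (3.69%). Their 73 parents took 778076, 862934 and 847137 counts. RPS16 alone had 188583, 169335 and 159884 of these, so that the ratio of the sums depends in part on this gene. For every 100 reads on the parents there were thus 48.0 reads on the members with no agent, 49.9 with Rg3 and 49.4 with TAM. These are ratios of counts and not of levels per length. The ratio of the sums changed little between libraries, while single members ranged widely.

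A few members held many of the reads. The median member had 44 counts with no agent, 57 with Rg3 and 40 with TAM. The 12 with the most counts held 39.8% of the members' reads with no agent, 33.6% with Rg3 and 43.9% with TAM. Of the 671, 527 had 10 counts or more in every library. Another 67 reached 10 in only 1 library, which was the control library for 23 of them, the Rg3 library for 40 and the TAM library for 4. At the edge of the choice, 22 members had a highest count of exactly 10, such as RPL19P10 with 10, 10 and 9 counts (control, Rg3, TAM), and 23 pseudogenes outside it had a highest count of 9, such as RPL19P20 with 9, 7 and 8.

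The reads followed the likeness of a copy to its parent. GENCODE 29 held an aligned sequence for 643 members and for 1721 of the 1793 listed pseudogenes, and the identity is the share of aligned bases that match the parent's transcript. Of 448 pseudogenes under 85% identity, 5 had 10 counts or more in a library, which is 1.12%. The share was 16.4% from 85% to 90% (76 of 464), 59.0% from 90% to 95% (325 of 551) and 88.5% from 95% to 98% (162 of 183). All 75 pseudogenes with an identity of 98% or more were members. No read was counted on 373 of the 448 least alike, and on 0 of these 75.

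**Figure D1:**
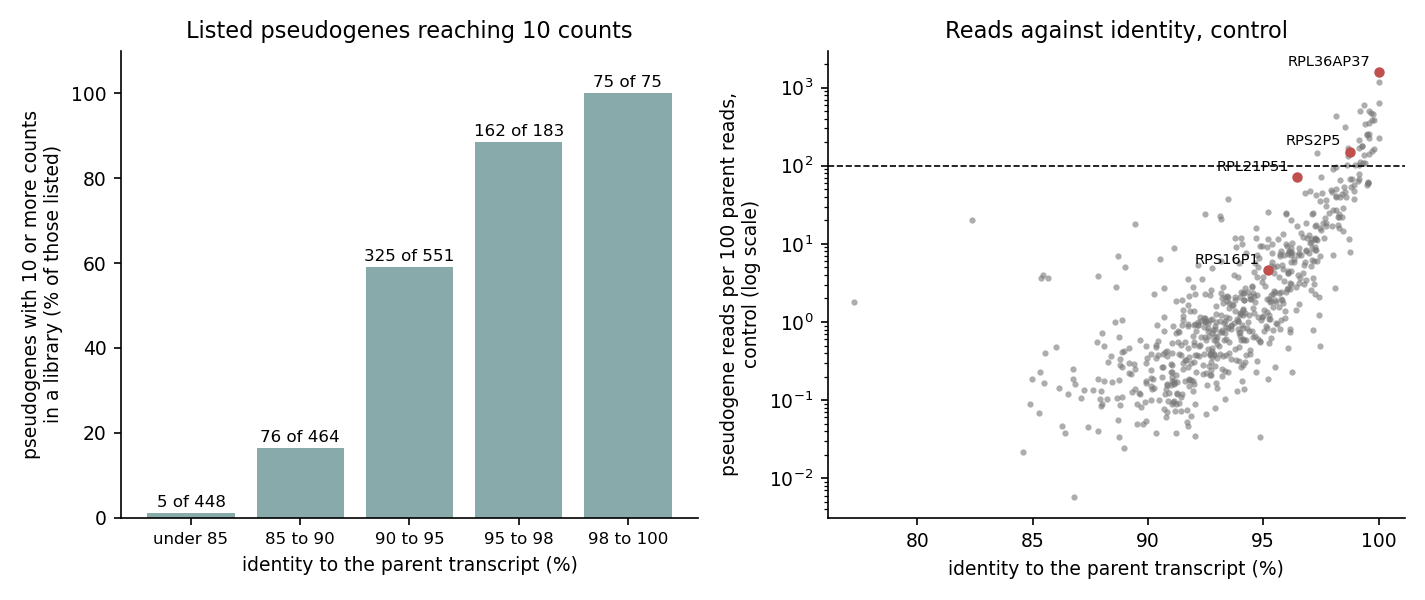
Left, the share of listed ribosomal protein pseudogenes with 10 or more counts in at least 1 library, by identity to the parent transcript in percent (bars from 0, with the number of members and of pseudogenes above each). Right, each point is a member, with its identity in percent on the horizontal axis and its reads per 100 parent reads in the control library on a log axis, the dashed line marking equal counts. The bars climb from 1.12% to 100%, and the points above the dashed line lie at the right, near full identity.

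Among the members, the median number of reads per 100 parent reads in the control library was 0.180 at 85% to 90% identity, 0.648 at 90% to 95%, 5.83 at 95% to 98% and 97.1 at 98% or more. The 75 most alike members held 67.3% of the aligned members' reads with no agent, 68.7% with Rg3 and 71.4% with TAM. Of the 34 members that exceeded their parent in every library, 32 were among these 75, and 1 lay between 95% and 98%. The other one, RPS26P25, had no aligned sequence.

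Over the 643 members, identity and the log2 of reads per parent read had a Spearman's rho of 0.80 with no agent, 0.78 with Rg3 and 0.79 with TAM. The points share a library and, within a family, a parent, so that this is a description of the table. The members' counts hardly followed the counts of the parents (rho 0.13, 0.04 and 0.14 over the 671).

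The length of exact matches gave the same picture. In the 169 members whose longest run of bases shared with the parent was under 50, the median was 0.295 reads per 100 parent reads in the control library, and none of them exceeded the parent in every library. In the 36 members with a shared run of 200 bases or more the median was 146.0, and 21 of them exceeded the parent in every library. No stretch of 50 bases was shared with the parent in 168 members, while in 18 members every such stretch also occurred in another gene.

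What else the members shared went along with identity. An open reading frame of at least 90% of the parent's coding length was left in 104 of the 643, with a median identity of 97.4% and 14.3 reads per 100 parent reads in the control library, against 93.3% and 0.917 in the other 539. Position did not separate them in this way. By RefSeq positions (GRCh38.p14), which were found for 670 members, 292 lay inside an intron of another gene, 57 overlapped an exon of another gene and 321 lay outside other genes, and the median identity of the 3 groups was between 93.3% and 94.0%. RefSeq marks 19 of the 670 as transcribed pseudogenes.

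The members with the most counts were close copies, with an identity of at least 98.6% in 11 of the 12. RPS2P5, in an intron of TAOK3 on the opposite strand, had 20888 counts with no agent, 19740 with Rg3 and 36023 with TAM, and RPS2 had 13808, 12447 and 18595. Both were lowest with Rg3 and highest with TAM, and the copy lay above the parent in all 3 libraries. After scaling with edgeR's TMM factors, the log2 fold over control was -0.41 with Rg3 (95% counting interval -0.44 to -0.38) and 0.99 with TAM (0.97 to 1.02) for the copy, against -0.48 and 0.64 for the parent. The copy's host gene TAOK3, a protein kinase, moved the other way, with 158, 278 and 39 counts. The intervals here and below cover the counting of reads only, and reads without molecular identifiers are not independent molecules.

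RPS18P5 had 19633, 21835 and 19994 counts (control, Rg3, TAM) beside 11543, 13127 and 13189 for RPS18 of the small subunit. RPL13AP5 had 14717, 14741 and 19966 beside 5865, 6571 and 6933 for RPL13A, a large subunit protein that also acts in silencing of inflammatory messages. In each of these pairs the copy was counted more often than the parent in every library.

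RPS2P46, the copy of RPS2 with the next most counts, had 13993, 11170 and 19184, close to the parent's own. RPL27AP6 had 12149, 12942 and 17124 beside 9080, 11441 and 9776 for RPL27A, and RPS10P19 had 10197, 10470 and 11255 beside the RPS10 counts given below. Other copies stayed under their parents. RPL3P4 had 13025, 11986 and 11987 beside 21534, 18418 and 22509 for RPL3, which lies near the peptidyl transferase centre. RPL10P16 had 7820, 6512 and 9799 and RPL10P9 had 6200, 5512 and 7941, beside 16434, 15218 and 21081 for RPL10, which helps the subunits to join. RPL15P3 had 7600, 7337 and 7759 beside 13306, 16372 and 15492 for RPL15.

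RPS16P1 differed from the other members with the most counts in its distance from the parent. Its identity was 95.2% and its longest run shared with RPS16 was 64 bases, and it had 8603, 6656 and 6099 counts. RPS16, for a protein of the small subunit, had 188583, 169335 and 159884, so that the copy held 4.56, 3.93 and 3.81 reads per 100 parent reads. The log2 fold of Rg3 over control was -0.70 for the copy and -0.48 for the parent.

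The highest ratios to a parent were seen where the parent itself had few counts. RPL36AP37, identical to the coding sequence of RPL36A over its 321 bases, had 4314 counts with no agent, 7932 with Rg3 and 5367 with TAM, against 273, 325 and 393 for RPL36A, a large subunit protein. RPS28P7, identical to RPS28 over 210 bases, had 2328, 2240 and 3979 against 372, 469 and 577. RPS26P25 had 2447, 3210 and 2817 against 354, 398 and 386 for RPS26, a small subunit protein. These copies were counted several times as often as the genes they were copied from, in every library.

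In 26 of the 73 families the members together had more counts than the parent, and this number was the same in each library. The 29 members of the RPL21 family held 97.2% of the family's reads in the control library, 3909 counts against 113 on the parent. The 15 of the RPL36A family had 5157 counts against 273, the 20 of the RPS26 family 6310 against 354, and the 29 of the RPS2 family 41492 against 13808. In the RPL21, RPL36A and RPS26 families a count on the parent alone was a small part of the reads that resemble it. In the RPS2 family the members held 75.0% of the family's reads in the control library.

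**Figure D2:**
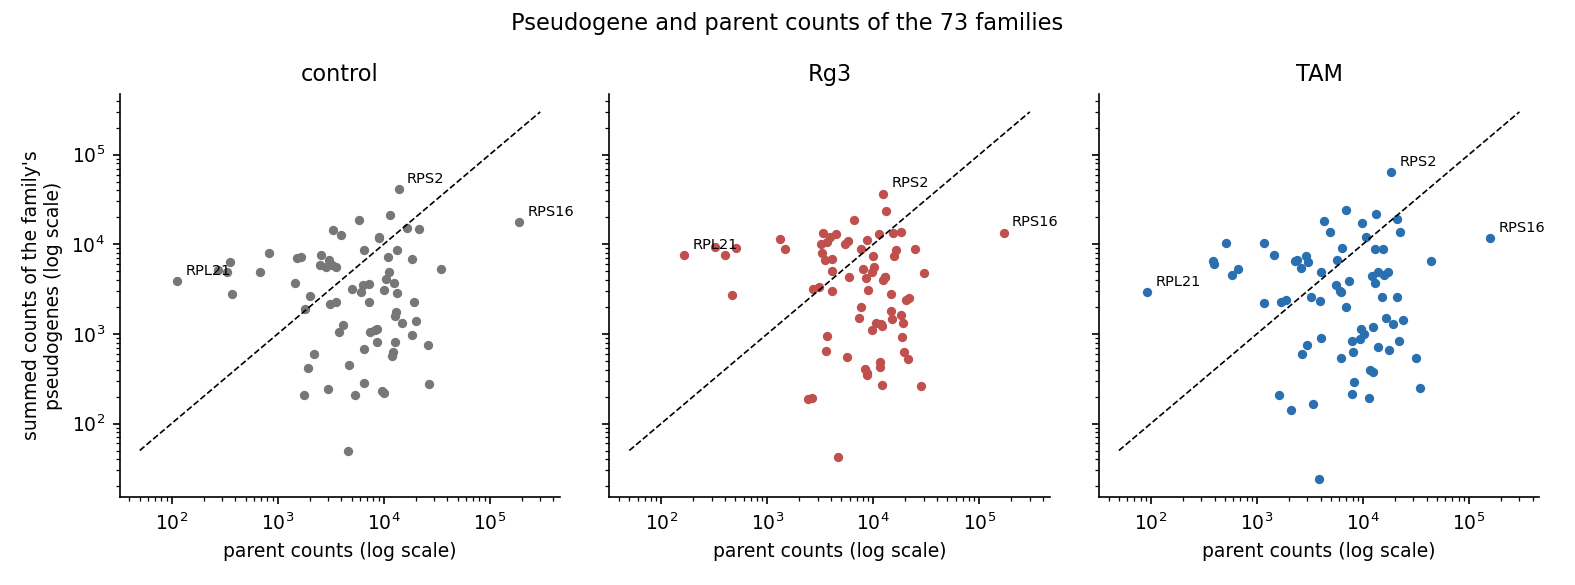
Each point is 1 of the 73 families, with the counts of the parent on the horizontal log axis and the summed counts of its pseudogenes on the vertical log axis, in 1 panel per library, and the dashed line marks equal counts. RPL21 lies far above the line with 113 parent counts in the control library, and RPS16 far below it with 188583.

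Adding the members' reads to the parent's moved the fold in a minority of families. The median log2 fold was 0.05 for the parents alone and 0.06 for the pooled families with Rg3. With TAM the medians were 0.41 and 0.36. The log2 fold of the pooled family differed from that of the parent alone by more than 0.1 in 19 of 73 families for Rg3 over control and in 19 for TAM over control, and its sign differed in 3 and in 1. The largest shift for Rg3 was in RPL36A, where the parent alone had a log2 fold of -0.08 and the pooled family 0.52. The largest for TAM was in RPL17, a large subunit protein, where the pooled value was lower by 0.56. The table also listed readthrough genes that contain a parent. RPS10-NUDT3, which contains RPS10, had 4029, 4376 and 4836 counts, close to the 3954, 4417 and 4863 of RPS10. RPL36A-HNRNPH2 had 716, 1138 and 576, above the counts of RPL36A itself. Whether reads were counted on both was not tested.

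The treatments were then compared, with a member counted as higher or lower when its fold was over 1.5 or under 0.67, the fold limits of the study's methods. Counts under 3 were raised to 3 before a fold was taken. Of 667 members with 10 counts or more in the Rg3 or the control library, 111 were higher with Rg3, which is 16.6%, beside 25.0% of all genes compared. The 129 members that were lower were 19.3%, beside 19.5% of all genes. The median log2 fold of the members was 0.01, and that of their parents was 0.05, with 6 of 73 parents higher and 1 lower.

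In the TAM library, 98 of 631 members were higher than in the control library (15.5%, beside 17.4% of all genes) and 96 were lower (15.2%, beside 23.8%). The median log2 fold was 0.07, whereas that of the parents was 0.41, with 15 of 73 parents higher and 0 lower. Between the treatments, 124 of 648 members were higher with Rg3 than with TAM (19.1%, beside 35.1% of all genes) and 150 were lower (23.1%, beside 30.2%). The share of members past a fold limit was below that of all genes in each of these counts. With the further condition that the counting interval lies off 0, 61 members were higher and 81 lower with Rg3, beside 20.9% and 16.2% of all genes. With TAM 68 were higher and 43 lower, beside 14.4% and 19.0%. For Rg3 over TAM 73 were higher and 123 lower, beside 30.9% and 27.3%.

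A member and its parent tended to move together. Among the 371 members with 50 counts or more in a library, the log2 fold of the member and of the parent had a Spearman's rho of 0.65 for Rg3 over control, 0.41 for TAM over control and 0.72 for Rg3 over TAM. Between-family differences made up 55.6%, 40.2% and 67.0% of the variance of the members' folds, over 367 members of 68 families. Some such share arises from the number of families alone, and it was not subtracted. The points share libraries, the members of a family share a parent, and a member may share reads with it, so that these values describe the table. The values by identity were as follows. For Rg3 over control rho was 0.36 in the 15 members from 85% to 90% identity, 0.69 in the 143 members from 90% to 95% identity, 0.69 in the 124 from 95% to 98% and 0.69 in the 74 at 98% or more. For TAM over control it was 0.44, 0.36, 0.43 and 0.62 in the same order.

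**Figure D3:**
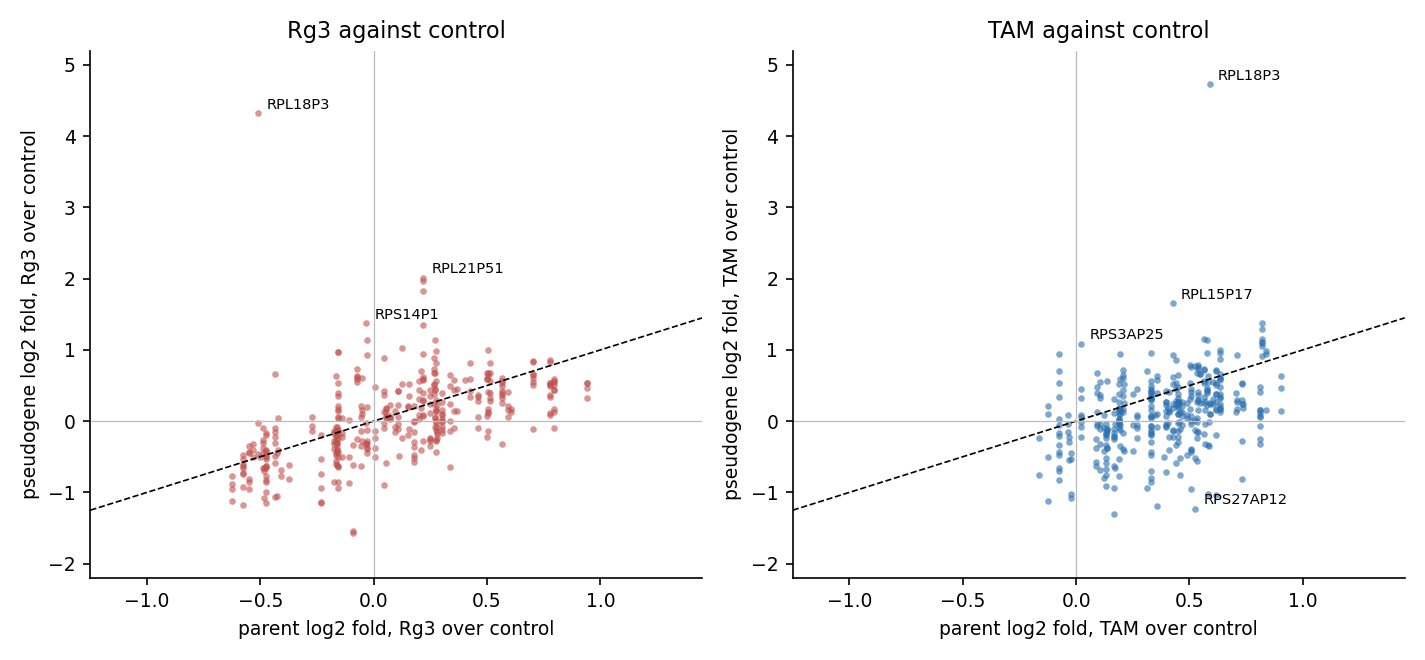
The log2 fold over control of each of the 371 members with 50 or more counts in a library (vertical axis) against that of its parent (horizontal axis), with Rg3 on the left and TAM on the right, where the dashed line marks equal folds. The points spread along the dashed line with Rg3 and mostly below it with TAM, and RPL18P3 stands apart at 4.32 and 4.74.

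The base composition of the members moved with the folds too. Over 358 members with 50 counts or more in a library, GC content and log2 fold had a rho of -0.65 for Rg3 over control and 0.18 for TAM over control. With the change of the ratio to the parent, GC content had a rho of -0.04 for Rg3 and of -0.00 for TAM. The ratio does not depend on the scaling between libraries. After removal of a smooth trend on GC content and transcript length over all genes, which could be done for 655 of the 667 members for Rg3 and 619 of the 631 for TAM, the members past the limit were 69 upward and 101 downward with Rg3, and 81 and 112 in turn with TAM. The share of all genes past the limits after this removal was not counted, so these numbers have no background beside them.

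The change of reads per parent read from control to Rg3 had a 95% interval that held 0 in 461 of 667 members, or 69.1%, and in 74.0% of 346 pseudogenes of other abundant messages, such as those of actin and elongation factors. In the 371 members with 50 counts or more in a library the share was 55.0% for Rg3 over control, 47.4% for TAM over control and 49.6% for Rg3 over TAM. The median change on the log2 scale over the 667 was -0.14, with 66 members higher and 114 lower by the fold limits. Among the other pseudogenes, 6.94% were higher and 13.9% lower, with a median of -0.12. The members' shares of 9.90% and 17.1% were thus a little above those of the other pseudogenes.

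From control to TAM, 27 of 631 members were higher against the parent (4.28%, beside 3.06% of 327 other pseudogenes) and 197 were lower (31.2%, beside 30.3%). The median was -0.32 in the members and -0.32 in the other pseudogenes. Lower ratios were thus more frequent than higher ones with TAM, both in the members and in pseudogenes of other genes. From TAM to Rg3, 153 of 648 members were higher (23.6%, beside 22.1% of 339 others) and 41 lower (6.33%, beside 5.6%), with medians of 0.20 and 0.22.

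RPL18P3 had the largest change of the members, and the largest log2 fold of Rg3 over control among all 16487 genes compared. It had 8 counts with no agent, 201 with Rg3 and 185 with TAM, while RPL18 had 9544, 8397 and 12447. The log2 fold over control was 4.32 with Rg3 (3.32 to 5.56) and 4.74 with TAM (3.73 to 5.97), while that of the parent was -0.51 and 0.59. Both treated libraries thus lay far above the control library, whether the parent was lower or higher. Against the parent, the log2 change was 4.84 with Rg3 (3.83 to 6.07) and 4.15 with TAM (3.14 to 5.38).

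Few long stretches of RPL18P3 occurred in another gene. It lies at chr5:121616215-121616857, and its identity to RPL18 was 88.0%. Of its 50-base stretches, 0% occurred in RPL18 and 1.76% in a transcript of any other gene. The listed genes within 100000 bases were RPL23AP44, with 0, 2 and 0 counts, and RSL24D1P10, with 2, 3 and 2. Its longest open reading frame was 75 bases, against 567 coding bases in RPL18. The fold rests on 8 counts in the control library.

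RPS14P1 was past the fold limit against its parent with Rg3 and not with TAM. It had 106, 346 and 102 counts, and RPS14 had 14805, 18141 and 19041. The ratio to the parent was higher by 1.41 on the log2 scale with Rg3 (1.09 to 1.74) and lower by a log2 change of -0.42 with TAM (-0.83 to -0.01), and the change from TAM to Rg3 was 1.83 (1.51 to 2.17). The host gene MAPKAPK2, a stress kinase on the opposite strand, had 906, 955 and 1150 counts, with a log2 fold of -0.25 with Rg3. Of the 50-base stretches of RPS14P1, 12.5% occurred in its parent.

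In the RPL21 family, after scaling, 28 of the 29 members had a log2 fold of Rg3 over TAM above 0, and that of RPL21P46, with 57, 59 and 44 counts, was -0.11. Over control, 26 of the 29 had a log2 fold above 0 with Rg3. The limit of 1.5 was passed by 13 of the 29 (44.8%, beside 16.6% of the members and 25.0% of all genes). Some of the 29 are members only through their Rg3 count, such as RPL21P2 with 5, 10 and 5 counts and RPL21P40 with 4, 10 and 3. The 29 also share a parent and may share reads, so that these numbers describe the table and are not separate observations. With TAM, 6 of the 25 compared had a log2 fold above 0 and 19 below. RPL21P16, the identical copy shown above, had 1343, 2074 and 837 counts, and RPL21P28 had 682, 1637 and 567. The parent followed the same order of libraries, with 113, 165 and 93 counts.

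The family held 3 of the 5 largest increases of the ratio with Rg3. RPL21P51, with an identity of 96.5%, had 81 counts with no agent, 411 with Rg3 and 102 with TAM. RPL21P101, with an identity of 92.5%, had 27, 132 and 38, and RPL21P100, with 89.5%, had 20, 89 and 22. The Rg3 library stood above both others in each of these copies. RPL21P119, with 99.4%, had 157, 501 and 262 counts and was above the control library with both compounds. The log2 change of reads per parent read with Rg3 was 1.80 for RPL21P51 (1.29 to 2.31), 1.74 for RPL21P101, 1.61 for RPL21P100 and 1.13 for RPL21P119. Set against all other reads of the family, in place of the 113 reads of the parent, the changes were 1.44, 1.36, 1.22 and 0.77.

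**Figure D4:**
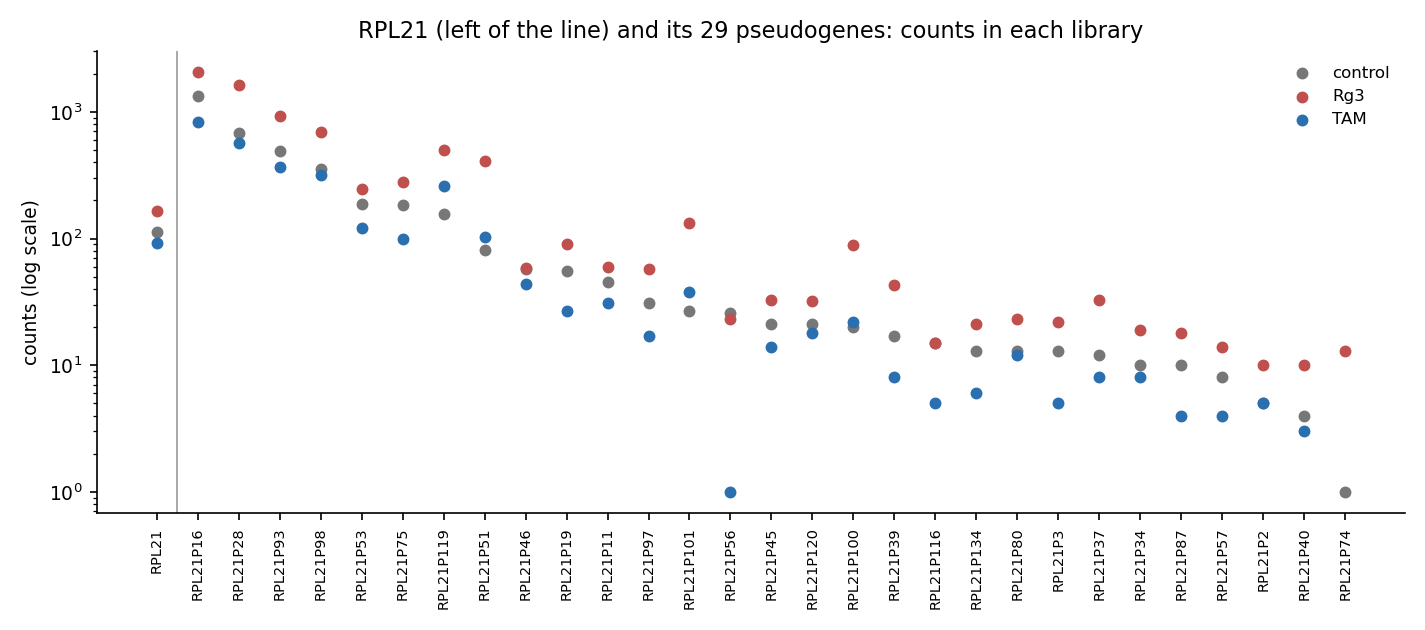
Counts on a log axis of RPL21 (left of the vertical line) and of its 29 pseudogenes, ordered by the control count, with 1 point per library (control grey, Rg3 red, TAM blue). A count of 0, in RPL21P74 with TAM, is not drawn. Counts are not scaled. The red points lie above the blue ones throughout, and RPL21P51, RPL21P101 and RPL21P100 have red points far above their grey ones.

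With TAM, RPL15P17 and RPS3AP25 were higher against their parents. RPL15P17 had 43, 43 and 118 counts, and RPL15, of the large subunit, had 13306, 16372 and 15492. The log2 change of the ratio was 1.24 with TAM (0.72 to 1.78) and -0.30 with Rg3 (-0.94 to 0.35). Its host gene CLEC6A, a lectin of myeloid cells, had 0 counts in every library, which allows up to 3. RPS3AP25 had 146, 326 and 269 counts beside 1651, 3375 and 1454 for RPS3A. Its ratio to the parent was higher by 1.06 with TAM (0.75 to 1.38) and differed by 0.13 with Rg3 (-0.17 to 0.43), where the copy and the parent were both higher. RPL23AP7 had 82, 165 and 136 counts beside 3048, 5420 and 3020 for RPL23A, with a log2 change of 0.74 with TAM (0.33 to 1.16) and 0.18 with Rg3 (-0.22 to 0.58). The sequence used for RPL23AP7 had 2078 bases, and its longest run shared with RPL23A was 52 bases. Of its 50-base stretches, 0.16% occurred in RPL23A, while 69.4% occurred in some other gene. Whether reads of other genes count on RPL23AP7 was not tested.

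Other members were lower against their parents. RPL26P32 had 161, 129 and 61 counts beside 5068, 8022 and 5631 for RPL26, a large subunit protein, with a log2 change of -0.98 with Rg3 and -1.55 with TAM. With each compound the copy was lower and the parent higher.

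With TAM, RPS27AP12 had the lowest log2 change of the ratio among members with 50 counts or more, -1.75 (-2.57 to -0.99). It had 54, 58 and 20 counts, and RPS27A, which encodes ubiquitin fused to a small subunit protein, had 3240, 5744 and 4044. The host gene UBE3C, on the same strand as RPS27AP12, had 1364, 1820 and 912 counts. The log2 fold with TAM was -0.37 for UBE3C and -1.23 for RPS27AP12. Whether reads of the host count on the copy was not tested. RPL27P10 had 64, 63 and 27 counts beside 4673, 5639 and 6204 for RPL27, with a log2 change of -1.65. RPL36AP13 had 103, 109 and 51 counts beside 273, 325 and 393 for RPL36A, with -1.54. RPL37AP8 was lower with both compounds, with 141, 80 and 85 counts beside 18364, 19591 and 21879 for RPL37A, and its log2 change was -0.91 with Rg3 and -0.98 with TAM. RPL32P34 had 74, 50 and 84 counts beside 10041, 13010 and 13006 for RPL32, and its log2 change was -0.94 with Rg3 (-1.49 to -0.40) and -0.19 with TAM (-0.66 to 0.28). In RPS27AP12, RPL27P10 and RPL36AP13 the counts of the control and the Rg3 library were close, and that of the TAM library was the lowest.

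**Figure D5:**
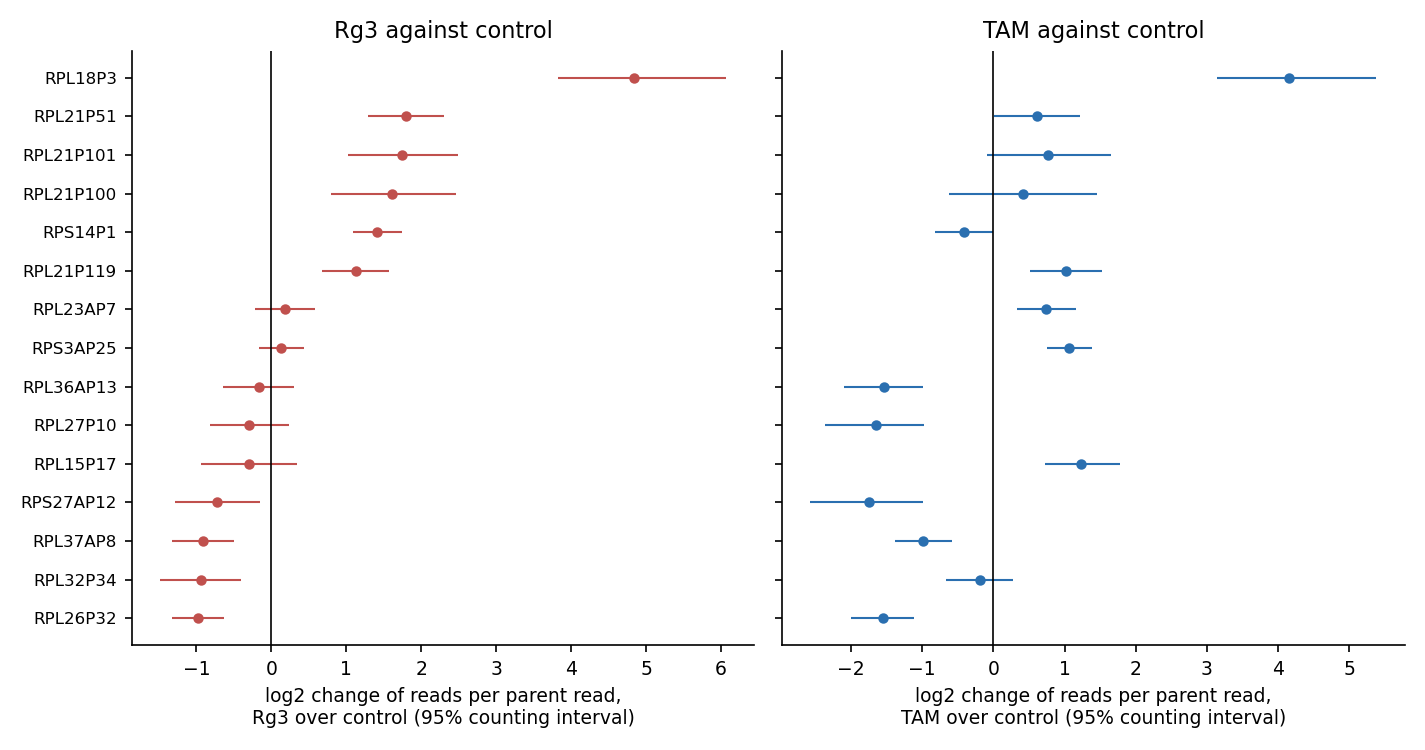
Log2 change of reads per parent read over control, with Rg3 on the left and TAM on the right, for named members with large or small changes in either comparison among those with 50 or more counts (points, with bars for the exact 95% counting interval and a line at 0). RPL18P3 lies at 4.84 and 4.15, RPS14P1 and RPL21P51 lie right of 0 with Rg3, and RPL15P17 lies right of 0 with TAM and across 0 with Rg3.

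Between the treatments, RPL23P2, RPS14P1, RPL36AP42, RPL27AP5 and RPL10AP1 had the 5 largest increases of the ratio from TAM to Rg3. RPL23P2 had 32, 82 and 16 counts, and RPL23 of the large subunit had 8616, 11767 and 9386, so that the log2 change of the ratio from TAM to Rg3 was 2.03 (1.25 to 2.91). RPL36AP42, another copy of RPL36A, had 356, 696 and 254 counts, with a change of 1.73 (1.42 to 2.03) against the 393 counts of the parent with TAM and 325 with Rg3, and of 0.91 against the whole family. RPL27AP5 had 31, 54 and 14 counts, with a change of 1.72 (0.85 to 2.68), and RPL10AP1 had 34, 65 and 17, with 1.58 (0.79 to 2.44). In these copies the control count lay between those of the treated libraries. In the other direction, the 5 lowest changes included RPS3AP25 and RPL15P17, described above, and that of RPL15P17 was the lowest, -1.54. RPL12P12 had 176, 148 and 240 counts beside 2889, 4100 and 2893 for RPL12, with a log2 change of -1.20 (-1.51 to -0.89). RPL23AP82 had 195, 222 and 254 beside 3048, 5420 and 3020 for RPL23A, with -1.04. RPL39P38 had 33, 52 and 33 beside 1464, 3522 and 1166 for RPL39, with -0.94 (-1.60 to -0.26). RPL23AP82 overlaps an exon of RABL2B, and the sequence used for it had 2987 bases. Its aligned part was 90.5% identical to the parent, with a longest shared run of 52 bases. Over the whole sequence, 0.12% of the 50-base stretches occurred in the parent, while 56.0% occurred in some other gene.

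The libraries held reads of epithelial and mesenchymal markers, which do not by themselves identify the line. KRT8 had 7817 to 15329 counts and VIM 39783 to 55276 across the libraries, the 6 acinar and islet markers had 0 counts, and markers of leukocytes and endothelium had 0 to 3. EPCAM and CDH1, also epithelial, were low, with 8 to 26 and 5 to 76 counts. KRT19, epithelial, had 181 to 665 counts, and CDH2, mesenchymal, had 308 to 784. Of the fibroblast markers, COL1A1 had 734 to 1853 counts, highest in the control library, COL1A2 had 2 to 5 and DCN had 0 to 1, and their part in the differences was not tested.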

How the data were processed

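RNA-seq of PANC-1 cells comprised 3 libraries (control, Rg3, TAM), grouped by their labels. Reads were mapped by the authors with TopHat, and the deposited table holds unnormalized counts of reads for each gene symbol. The labels name an Ion Proton protocol and the build GRCh38. The counting tool, the annotation, the use of strand and the handling of reads with several matches are not given in the sources used here. Column totals were 11300766 to 12861693 counts, and 0 value columns lacked a sample. A count of 0 allows up to 3 counts.

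From the deposited counts, log2 folds were taken after TMM scaling (edgeR 4.0.16 under R 4.3.3, with Python 3.11.15 for the rest), over genes with 10 counts or more in either library, with counts under 3 raised to 3. The factors were 1.02, 1.12 and 0.879. Intervals of folds are exact (conditional binomial, Clopper-Pearson) and those of ratios to a parent are conditional odds ratio intervals, both at 95%. The expression criteria of the study's methods that need replicates could not be fitted. Both intervals were tried on simulated counts drawn independently for copy and parent, as the intervals assume. Reads shared between a copy and its parent were not simulated, so that the trial says nothing on them.

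Identity was taken from blastn 2.17.0 of GENCODE 29 transcripts, which were found for 647 members, matched by symbol or by position (80% of the shorter span), and the best hit to the parent was used. The GENCODE model can be shorter than the RefSeq gene. Marker lists, the comparison pseudogenes and the members were chosen with earlier results of these data known. Members named in the text were taken from the 12 with most counts, the 5 with the highest ratio to the parent in the control library, the 5 largest and 5 smallest changes of the ratio for each library pair among members with 50 counts or more in either library, and RPL18P3. The results of some named members are not reported here. TAOK3 and the other host genes, the RPL17 and RPS10 families and members at the edge of the choice were added as context. Alternatives were division by library totals, size factors of DESeq2 1.42.0, minimums of 50 and 1 counts, a floor of 1, removal of a loess trend (span 0.3) on GC content and length, the parent nearest in sequence and, chosen after seeing the data, the whole family as the denominator.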

Additional observations from a re-analysis of the deposited data

How the results depend on the processing

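No paired analysis was possible because only 1 library stands for a condition, and for the same reason no library could be left out. The directions of small folds depend on the scaling. Division by library totals put the median log2 fold of the members at 0.15 for Rg3 over control, -0.14 for TAM over control and 0.32 for Rg3 over TAM. For Rg3 over control 159 members were then higher and 93 lower, in place of 111 and 129. The members higher and lower were 58 and 152 for TAM over control and 221 and 80 for Rg3 over TAM. DESeq2 size factors kept every count within 1.5 times. With a minimum of 50 counts in either library fewer members are compared, and 50 were higher and 49 lower for Rg3, 51 and 24 for TAM, and 55 and 94 for Rg3 over TAM. The ratio to the parent then gave 25 and 33 for Rg3, 8 and 67 for TAM, and 71 and 17 for Rg3 over TAM. Shares of all genes were not counted under any alternative in this section, so the counts of members have no background beside them. After removal of a smooth trend on GC content and transcript length, 69 members were higher with Rg3 over control, and 99 were lower and 84 higher for Rg3 over TAM. Of the folds of single members, 60 then lay outside their counting interval and 63 inside under library totals, and 61 outside and 56 inside with the trend removed. The cause of these shifts was not tested. The ratios to the parent do not use a scaling. Against the whole family, RPL36AP37 had a log2 change from TAM to Rg3 of -0.17, in place of 0.84 against RPL36A alone, and of the other values of single members 101 stayed within their counting intervals and 21 moved outside them. The floor of 1, the minimum of 1 count and the parent nearest in sequence left each such value within its interval.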

Other observations

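Pseudogenes of the acidic stalk proteins and of RPSA, whose symbols do not have the form used above, were also counted. There were 48 with 10 counts or more in a library, and together they had 62314 counts with no agent, 70532 with Rg3 and 68990 with TAM. The 32 copies of RPSA, a small subunit protein also known as the laminin receptor, had 35364, 42264 and 38605 counts, against 10152, 11066 and 12626 on RPSA itself. The 7 copies of RPLP0, a protein of the ribosomal stalk, had 20118, 20055 and 23108 counts, against 20815, 24060 and 25884 on the parent.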
